A study of Mus musculus with 24 samples.

Results

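Naive CD4 T cells lacking Raptor were compared 8 h after stimulation and before it, in 4 samples of each kind, 8 of the 24 samples of the series. Both groups came from CD4(cre)Raptor(fl/fl) mice, in which Cre recombinase under Cd4 regulatory sequences removes the loxP-flanked part of Rptor in T cells developing in the thymus. By this design the cells mature without the gene, and other tissues of these mice keep it. How complete the deletion was in these samples was not tested. Cells sorted as CD4+CD62LhiCD44loCD25- from spleen and lymph nodes were taken as they were (unstimulated) or stimulated for 8 h by plate-bound anti-CD3 and anti-CD28. WT cells, for which the labels also give the strain C57BL/6, were handled in the same way, and their 4 unstimulated and 4 stimulated samples are used here to place the response. The labels give no age. They do not say that replicates came from separate animals, so each p-value reflects only sample-to-sample spread, which may be technical. The samples stimulated for 24 h, 4 of each genotype, entered none of the contrasts reported. They entered the estimate of that spread, the choice of probe set for each gene and the limits set for dim values.

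Raptor, encoded by Rptor, is the scaffold that brings substrates to the mTOR kinase in mTORC1, a complex that couples nutrients, growth factors and antigen receptor signals to the synthesis of protein, lipid and nucleotides. When a resting T cell meets antigen, its receptor and CD28 switch on immediate early transcription factors, then cytokines and activation receptors. The cell leaves quiescence, enlarges and builds ribosomes, mitochondria and membranes before it first divides. The comparison asks which of these steps appear in the transcriptome when Raptor is missing.

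Transcript levels were read as log2 intensities on Affymetrix arrays. In all, 17097 genes were tested, each through its brightest probe set, and a gene is said to have risen or fallen where limma's Benjamini-Hochberg adjusted p was under 0.05. Array medians lay between 5.152 and 5.288. The values carry no detection call, so where the lower of the compared group means was under 5.152 the change is given on the log2 scale without a fold, and its size is approximate. Unstimulated Raptor-deficient replicate 1 stood apart. In it 342 genes lay at least 2-fold above the mean of the other 3 replicates and 35 lay below it. Each of those 3 had at most 47 in either direction. The unstimulated Raptor-deficient group was also noisier as a whole. The lowest correlation of each of its samples with a replicate was 0.9777 to 0.9826, against at least 0.9917 in every other group. limma's standard error (SE) pools the spread of all 6 groups. It and the p-values can therefore be too small where this noisier group enters. Markers of CD4 T cells were high in all 8 samples, with a mean over 11 genes of 9.49 to 9.67. Of these 11 genes 2 rose and 6 fell with stimulation. The means over other lists were lower, at 5.12 to 5.57 for 14 B cell genes, 4.38 to 4.61 for 15 myeloid genes, 4.45 to 4.73 for 10 natural killer cell genes and 4.37 to 4.48 for 8 hepatocyte genes. Of the 14 B cell genes 1 rose, Fcer2a by 0.58 with groups that overlapped. None of the 15 myeloid and 8 hepatocyte genes passed limma's test between the unstimulated and stimulated cells, and 2 and 0 of them had an unadjusted p under 0.05. The call of Fcer2a was lost without unstimulated replicate 1 or 2, or stimulated replicate 1 or 3. In whole-population samples such as these, fewer cells with a transcript and less of it per cell cannot be told apart.

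The transcript of the targeted gene was read by a probe set whose place relative to the deleted part is not given in the sources used here, so its level is a limited check of the labels. Rptor in the unstimulated Raptor-deficient samples was 5.92, 7.37, 6.55 and 6.79, and at 8 h it was 6.41, 6.27, 6.50 and 6.79. WT samples gave 7.04, 7.49, 7.19 and 7.39 before stimulation and 7.49, 7.51, 7.57 and 7.46 at 8 h. All 4 stimulated Raptor-deficient values lay below all 4 stimulated WT values, and 1 unstimulated value, that of replicate 2, lay inside the WT range. Stimulation moved Rptor by -0.16 ± 0.18 (SE) on the log2 scale, which did not pass the test (adjusted p = 0.5545). Without unstimulated replicate 1 the change was -0.41 with an adjusted p of 0.031, and without replicate 2 it was 0.07. Rptor had another, dimmer probe set, with a mean over all samples of 5.95 against 6.91. That probe set changed by 0.04 and did not pass limma's test over all probe sets (adjusted p = 0.7844). Mtor, the kinase, was not called either (0.12 ± 0.08).

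Activation without Raptor moved 5612 genes, 32.8% of those tested. Of these, 2734 rose, 16% of all genes, and 2878 fell, 16.8%. Counts of list members are to be read against these shares, and a count near them is not a result about the list. A fold of at least 2 was reached by 714 of the genes that rose and by 431 of those that fell, and the median change over all genes was 0.00. Without unstimulated replicate 1 the counts were 2708 and 2957. WT cells had 6784 called genes, 39.7%, of which 1830 reached 2-fold, against 1145 in the Raptor-deficient cells.

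The pair of responses, which share no sample, ran alike across most genes. The log2 changes correlated with r = 0.899 across 17097 genes, which are not independent replicates. Called in the same direction in both genotypes were 4488 genes, 80% of the Raptor-deficient calls and 66.2% of the WT calls. Called in opposite directions were 31. A test of the difference between the responses, Raptor-deficient minus WT, called 1076 genes, 6.29% of those tested. In 331, 1.94%, the change lay higher without Raptor and in 745, 4.36%, lower. With each array centred on its median the split was 225 higher and 1053 lower. Of these 745 genes, 427 rose in both genotypes, 225 rose in WT and were not called without Raptor, and 16 rose in WT and fell without it. Of the 331, 119 fell in both, 113 fell in WT alone by the calls, and 97 rose without Raptor. The count of 1076 is sensitive to the fit: it was 548 with only the 16 samples of the 4 groups fitted, and 1653 without unstimulated Raptor-deficient replicate 3. Counts of list members in the test of the difference are to be read against its shares of 1.94% and 4.36%. That test compares changes, so a smaller rise without Raptor need not mean a lower level at 8 h. The plot of both responses shows the sterol genes under the line of equal change.

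**Figure D1:**
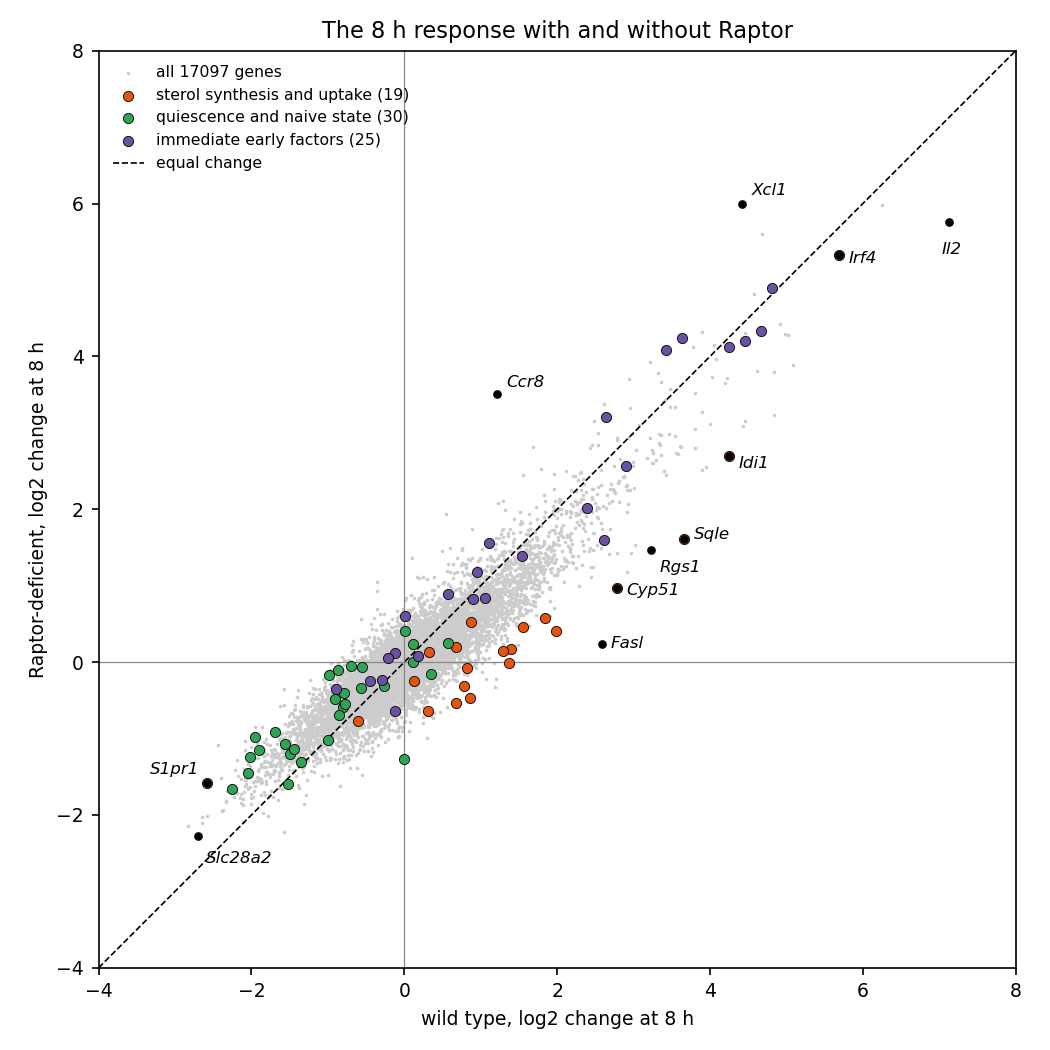
Each point is a gene, with its log2 change at 8 h in WT cells on the x axis and in Raptor-deficient cells on the y axis. Grey points are all 17097 genes, coloured points are members of 3 lists, black points are named genes, and the dashed line marks equal change; Xcl1 and Ccr8 lie above it, while Il2, Sqle, Cyp51 and Fasl lie below.

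Immediate early transcription factors rose without Raptor. Immediate early genes are those that receptor signalling switches on without new protein synthesis. Whether each member of the list meets that definition was not tested. Of 25 measured, 18 rose, 14 of them at least 2-fold, and 1 fell, with a median change of 1.39 against 1.10 in WT and 0.00 over all genes. Gene by gene, the median difference from WT was 0.06, with 1 change higher and 1 lower by the test. The count of falls ran from 0 without unstimulated replicate 2 or 4 or stimulated replicate 3 or 4 to 2 without unstimulated replicate 1 and 3 without unstimulated replicate 3. Nr4a1, an orphan nuclear receptor whose level follows T cell receptor signal strength, stood at 6.42, 5.93, 6.36 and 5.93 unstimulated and at 11.06, 11.03, 11.12 and 11.02 after 8 h. The groups did not overlap, and the 4 stimulated samples lay within 0.1 of each other. The change was 4.90 ± 0.11 (SE) or 29.8-fold (adjusted p = 1.653e-21), beside 4.81 in WT. Egr2, a zinc finger factor of T cell activation and tolerance, went from 7.28, 6.79, 6.62 and 7.11 to 11.27, 11.23, 11.35 and 11.30, a 20.2-fold rise. Irf4, which scales effector differentiation with signal strength, went from 5.12, 5.78, 6.39 and 5.84 to 11.11, 11.04, 11.21 and 11.06, a 40.0-fold rise. Myc, the factor that drives the growth programme of activated T cells, went from 7.54, 7.94, 7.99 and 7.87 to 11.85, 11.95, 12.17 and 11.86. That is a rise of 4.12 ± 0.10 (SE) or 17.4-fold, and in WT the change was 4.25. Nr4a3, a relative of Nr4a1, rose 19.0-fold, from 7.36, 7.49, 8.04 and 7.44 to 11.76, 11.84, 11.98 and 11.73. Its rise was larger than in WT by 0.62 (adjusted p = 0.028), a call lost in 9 of the 16 fits that left out 1 sample, with only the 16 samples fitted (adjusted p = 0.08169) and with the mean of probe sets (0.37, adjusted p = 0.1072). For Nr4a1, Egr2, Irf4 and Myc the difference between genotypes did not pass the test. Within the list, Fosl1, an AP-1 subunit singled out after its values were seen, rose less without Raptor: 1.59 against 2.61, a difference of -1.02 ± 0.24 (adjusted p = 0.012).

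Promoter sequences show 2 of the sites through which such genes are known to respond, the CArG box bound by serum response factor and the cyclic AMP response element (CRE) bound by CREB. The 250 bases before the start of 19 of the 25 genes could be matched in RefSeq (GRCm38.p6), as 26 promoters, and were searched on both strands for the CArG box, the CRE TGACGTCA and the AP-1 site TGAGTCA. A CArG box was in 4 promoters, all of them alternative starts of Egr2, or 15.4% against 1.47% of the 32851 promoters of the table. Counted by gene that is 1 of 19, so the 15.4% is not a result about the list. The CRE was in 1 promoter, that of Maff, or 3.85% against 1.55%, and the AP-1 site in 0 against 4.46%. Maff, a small Maf protein, rose by 0.83 ± 0.11, from 7.37 to 7.70 unstimulated to 8.35 to 8.43 at 8 h. The promoters that held a site are shown for these 2 genes, 5′ to 3′ on the strand of the gene, with the site in capitals: Egr2 at chr10:67537316-67537565 on the plus strand, where the CArG box ends 62 bases before the start, and Maff at chr15:79347270-79347519 on the plus strand, where the CRE ends 21 bases before it. A match describes the letters of the window and does not show binding.
Egr2: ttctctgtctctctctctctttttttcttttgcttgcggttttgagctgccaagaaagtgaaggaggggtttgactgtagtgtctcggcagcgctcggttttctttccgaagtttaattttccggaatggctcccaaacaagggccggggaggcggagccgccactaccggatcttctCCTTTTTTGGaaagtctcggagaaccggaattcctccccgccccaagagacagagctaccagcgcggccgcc
Maff: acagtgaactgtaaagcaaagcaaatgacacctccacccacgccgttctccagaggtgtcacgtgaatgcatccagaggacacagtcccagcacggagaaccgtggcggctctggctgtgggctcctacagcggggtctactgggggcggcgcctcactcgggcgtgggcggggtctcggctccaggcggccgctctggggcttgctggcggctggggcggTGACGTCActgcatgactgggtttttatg

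All 8 measured NF-kB and NFAT factors changed, 5 rising and 3 falling. Rel, the NF-kB subunit most tied to Il2, rose from 8.44, 8.19, 8.63 and 8.40 to 10.30, 10.26, 10.41 and 10.46, or 3.85-fold. Nfatc1, which is induced through its own product, rose 4.82-fold (7.28 to 7.85 unstimulated, 9.74 to 9.95 at 8 h). Nfkb2, the precursor of p52, rose 2.21-fold. Nfatc3, one of the NFAT proteins present before stimulation, fell by 0.97 on the log2 scale, and Bcl3, a nuclear partner of p50 and p52, fell by 0.53. In WT, Bcl3 changed by 0.29, which did not pass the test, and the difference of -0.82 ± 0.18 passed the test (adjusted p = 0.0061). Bcl3 started higher without Raptor, at 7.34 to 7.96 against 6.84 to 7.28 in WT. Its means at 8 h were 7.05 without Raptor and 7.38 in WT.

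Receptors that mark activated T cells rose. Of 26 measured, 20 rose, 18 of them at least 2-fold, and 2 fell. The 2 falls were 1 without unstimulated replicate 1 or 2 or stimulated replicate 2, 3 or 4, after cyclic loess, with array weights and with only the 8 samples compared. The mean level of the list ran from 6.47 to 6.63 in unstimulated samples and from 8.23 to 8.42 at 8 h. Il2ra, the high-affinity subunit of the interleukin 2 receptor (CD25), was 4.0045, 4.58, 4.95 and 3.88 in the unstimulated cells, which had been gated as CD25-, and 10.29, 10.30, 10.55 and 10.20 at 8 h. Its change was 5.98 ± 0.23 (SE), from a dim unstimulated level, and the WT change was 6.25. Cd69, which retains activated cells in lymphoid tissue, was 8.23, 7.87, 7.65 and 7.65 before and 10.80, 10.90, 11.03 and 10.86 after, an 8.28-fold rise. Cd69 was already higher before stimulation than in WT cells (6.80, 6.82, 6.25 and 6.66), with no overlap, and stimulated WT cells reached 10.33 to 10.48. The rise was smaller than in WT by 0.75 ± 0.17 (adjusted p = 0.0068), although the stimulated level was higher in all 4 samples. Tnfrsf9, the costimulatory receptor 4-1BB, rose 28.1-fold, Slamf1 19.4-fold, Cd274, the ligand of PD-1, 13.7-fold, and Tfrc, the transferrin receptor, 7.16-fold. Pdcd1, PD-1 itself, singled out after its values were seen, rose from 4.82, 5.21, 4.91 and 5.33 to 7.72, 7.91, 8.08 and 7.75, less than in WT by 1.01 ± 0.17 (adjusted p = 0.00077). Cd28, the costimulatory receptor engaged by the antibody, fell by 0.50, with groups that overlapped (9.81 to 10.44 before, 9.49 to 9.88 after). In the list as a whole, 6 of 26 members had a lower change than in WT by the test, against 4.36% of all genes.

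Of 30 cytokine and chemokine genes measured, 15 rose and 1 fell. Il2, the growth factor of activated T cells, went from 4.90, 5.29, 4.94 and 4.75 to 10.31, 10.75, 11.04 and 10.81, a log2 change of 5.76. In WT cells it went from 3.97, 4.43, 4.82 and 4.51 to 11.16, 11.52, 11.81 and 11.74, so every stimulated Raptor-deficient sample lay below every stimulated WT sample. The rise was smaller than in WT by 1.37 ± 0.24 (adjusted p = 0.00077). Xcl1, a chemokine that attracts cross-presenting dendritic cells, rose from 5.31, 4.31, 5.49 and 4.54 to 10.79, 11.04, 11.04 and 10.74, a change of 5.99 from an unstimulated level that was dim. In WT it reached 9.04 to 9.26, and the difference between the responses was 1.57 ± 0.25 (adjusted p = 0.00033). Tnfsf11, the ligand RANKL, went from 3.24, 4.18, 4.01 and 3.62 to 9.41, 9.32, 9.38 and 9.37, a log2 change of 5.61 against 4.69 in WT. Tnf rose 6.36-fold, and Ccl4, a chemokine, rose by 2.97 on the log2 scale. Ltb, the membrane-bound part of lymphotoxin, fell by 0.73, with 1 unstimulated sample (7.24) inside the stimulated range of 7.11 to 7.45.

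Fasl, the death ligand of T cells, was the cytokine-list member whose change lay furthest below that in WT. It was singled out after its values were seen. It was 3.87, 3.93, 3.28 and 3.55 unstimulated and 4.26, 3.71, 3.72 and 3.87 at 8 h, and the groups overlapped. The change of 0.23 ± 0.15 did not pass the test (adjusted p = 0.28). WT cells went from 4.01, 3.83, 4.09 and 4.05 to 6.56, 6.92, 6.46 and 6.37, and the difference of -2.35 ± 0.22 did pass (adjusted p = 3.952e-07). Lta, the soluble lymphotoxin, also rose less than in WT, by 0.94 ± 0.21 (adjusted p = 0.0065).

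**Figure D2:**
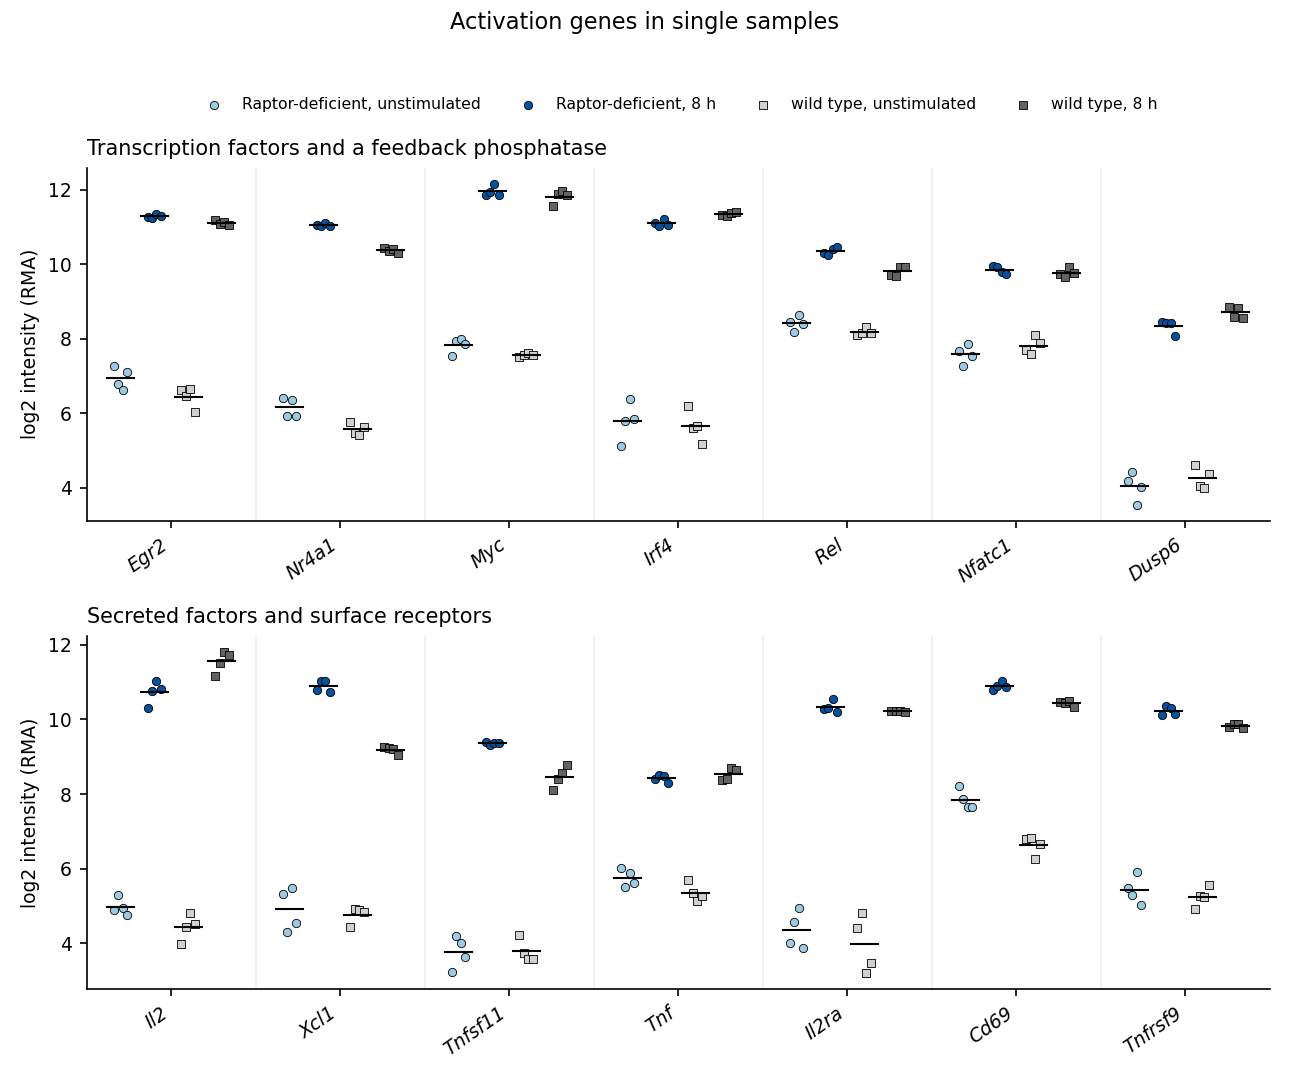
Log2 intensities of 14 activation genes in single samples, with bars at group means, for Raptor-deficient cells (circles, light before and dark after 8 h) and WT cells (squares), n = 4 each. In all 14 genes the 4 stimulated Raptor-deficient samples lie above the 4 unstimulated ones; Il2 stays below WT and Xcl1 above it at 8 h.

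Of 28 feedback inhibitors measured, 15 rose and 5 fell. Dusp6, a phosphatase of ERK, went from 4.18, 4.41, 3.54 and 4.01 to 8.45, 8.43, 8.43 and 8.07, a log2 change of 4.31. Rgs16, which shortens G protein signals, rose 20.0-fold, Nfkbid, a nuclear IkB protein, 11.9-fold and Dusp2, another MAP kinase phosphatase, 4.37-fold. Spry1, an inhibitor of the Ras pathway, rose by 4.30 on the log2 scale. Among those that fell were Pde4b, which breaks down cyclic AMP, by 1.49, and Dgka, which removes diacylglycerol and is high in resting T cells, by 1.06. Dgka stood at 11.55, 11.73, 11.62 and 11.58 before and 10.50, 10.75, 10.40 and 10.58 after. Of 22 genes of the receptor complex and its adaptors, 7 rose and 8 fell. Malt1, the paracaspase of the NF-kB branch, rose 5.45-fold, Lcp2, the adaptor SLP-76, 3.73-fold and Zap70, the kinase that docks to the receptor, 3.58-fold. Cd4 fell by 0.95, from 10.53, 11.00, 10.93 and 10.95 to 9.81, 9.94, 9.93 and 9.94, and in WT it fell by 0.96. Among the 15 largest rises were also Hivep3, a zinc finger protein that binds NF-kB sites, and Bcl2a1a, an anti-apoptotic Bcl2 relative with near-identical copies that the probe set may also read. Hivep3 rose 19.2-fold and Bcl2a1a 21.5-fold, the latter from 7.92, 6.32, 6.33 and 6.83 to between 11.22 and 11.31.

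Genes of the resting, naive state fell, but several did so less than in WT. Of 30 measured, 21 fell, 12 of them at least 2-fold, and 2 rose, with a median change of -0.64 against -0.88 in WT. Of the 2 rises 1 was called without unstimulated replicate 1 or stimulated replicate 2, 3 or 4, and 0 with only the 8 samples compared. Klf2, the factor that keeps naive cells recirculating, went from 10.71, 10.59, 10.26 and 10.53 to 9.62, 9.47, 9.25 and 9.45, a 2.10-fold fall. S1pr1, its target and the receptor for exit from lymph nodes, went from 10.61, 10.65, 10.58 and 10.72 to 9.08, 9.23, 8.66 and 9.28, or 2.98-fold lower, and in WT to 8.83, 8.21, 7.26 and 8.03. The difference of S1pr1 passed the test (adjusted p = 0.03838) but was lost in 10 of the 16 fits that left out 1 sample. Lef1, a factor of the naive state, fell 2.30-fold, Klf3, a repressor of the Klf family, 2.74-fold, Il6ra, a receptor shed on activation, 2.46-fold, Tob1, an antiproliferative protein, 3.02-fold and Zfp36l2, which destabilises mRNA, 2.02-fold. None of these 5 differed from WT by the test, although Klf3 did without stimulated WT replicate 1 (0.77 against 0.59, adjusted p = 0.005683).

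Btg1, Btg2 and Satb1, singled out after their values were seen, were not called without Raptor. Btg1, an antiproliferative factor that keeps naive T cells at rest, was 11.74, 11.69, 11.77 and 11.78 before and 11.75, 11.77, 11.63 and 11.63 after, a change of -0.05 ± 0.07 (adjusted p = 0.66). In WT it went from 11.87, 11.83, 11.70 and 11.84 to 11.26, 11.18, 10.99 and 11.04, and the difference of 0.64 ± 0.11 passed the test (adjusted p = 0.00056). Btg2, its paralogue, changed by -0.17 ± 0.11 without Raptor and -0.98 with it (adjusted p of the difference = 0.0014). Satb1, a chromatin organiser of T cells, changed by -0.11 ± 0.11 against -0.86 (adjusted p = 0.0048). Txnip, which blocks glucose uptake, fell, from 11.58, 11.56, 11.71 and 11.68 to 10.31, 10.50, 10.10 and 10.65, but by 0.78 ± 0.19 less than in WT (adjusted p = 0.014). In all, the changes of 9 of the 30 genes lay above those in WT by the test and that of 1 below. The shares of all genes were 1.94% and 4.36%. The count of 9 was 5 without stimulated WT replicate 3, whose values of the list are the lowest of its group in S1pr1 and several others, and 4 with only the 16 samples fitted.

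The largest falls lay mostly outside the lists. Slc28a2, a nucleoside importer, went from 10.35, 10.19, 10.15 and 10.43 to 7.98, 7.92, 7.49 and 8.59, a 4.86-fold fall. Mex3b, an RNA-binding protein, fell 4.43-fold, St8sia6, a sialyltransferase, 4.29-fold, Sesn1, a leucine-sensing inhibitor of mTORC1, 4.28-fold, Rflnb, a filamin-binding protein, 4.06-fold and Cd55, a complement regulator on the cell surface, 4.04-fold. Itga4, the alpha 4 integrin, fell 3.86-fold, Ly6c1, which has a near-identical neighbour in Ly6c2, 3.94-fold, and Acp5, an acid phosphatase, 3.67-fold. Als2cl fell 3.83-fold, Cep97, a centriole protein, 3.61-fold, Ager, a receptor for glycated proteins, 3.59-fold and Arhgef18, a guanine nucleotide exchange factor, 3.56-fold. In all of these genes the groups did not overlap, which was a condition of their choice and not a result. For Nipal1, a magnesium transporter, and Sh3pxd2a, a scaffold of podosomes, unstimulated replicate 1 stood above the others. Nipal1 was 8.81, 6.40, 5.83 and 6.28 before and 4.54, 4.78, 4.53 and 4.57 after. Sh3pxd2a was 8.83, 6.49, 6.11 and 6.82 before and 5.21, 5.56, 4.57 and 5.48 after. Without unstimulated replicate 1 their falls of 2.23 and 1.85 were 1.57 and 1.27 on the log2 scale, and both remained called. The 8 measured Gimap genes, a cluster of GTPases that keep lymphocytes alive, all fell, against 16.8% of all genes, by 0.39 to 1.31 on the log2 scale. Gimap9 went from 10.42 to 10.73 unstimulated to 8.93 to 9.54.

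**Figure D3:**
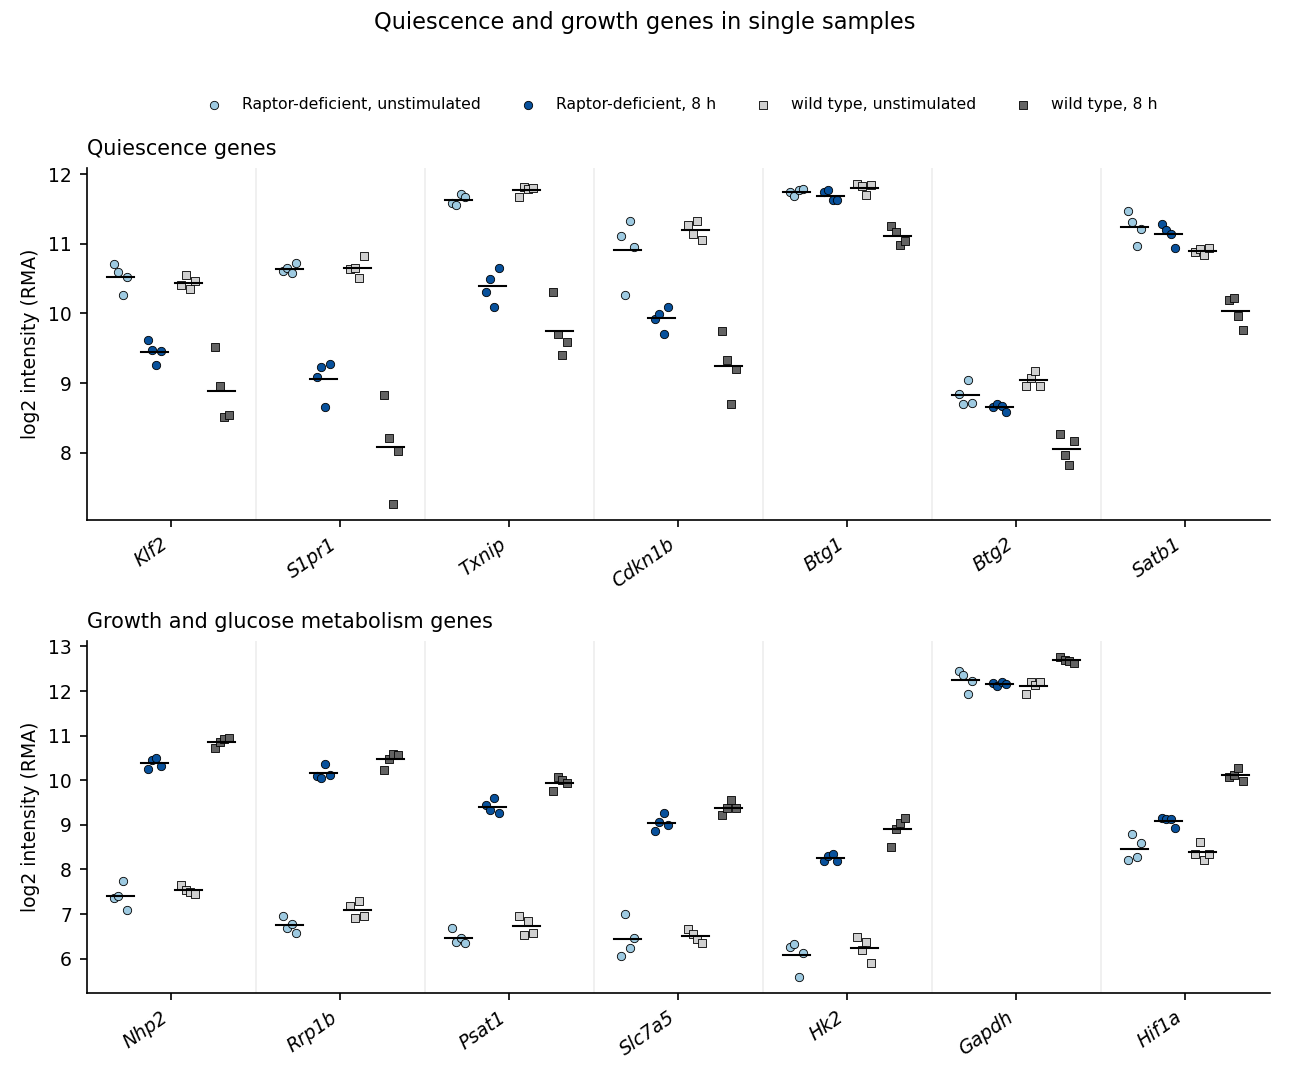
Log2 intensities of 7 quiescence genes and 7 growth and glucose metabolism genes in single samples of the 4 groups, n = 4 each, with bars at group means. Btg1, Btg2 and Satb1 fall in WT cells (squares) and overlap between the Raptor-deficient groups (circles), while Nhp2, Rrp1b and Psat1 rise in both genotypes.

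Of 32 genes of the mTOR complexes and their regulators, 5 rose and 9 fell, beside 16% and 16.8% of all genes. None differed from WT by the limma test at the adjusted threshold, and 6 had an unadjusted p under 0.05. Without unstimulated Raptor-deficient replicate 3, 4 of them rose less or fell more than in WT by the test. The 5 rises were 8 after cyclic loess and 3 with only the compared samples fitted. Fnip2, a partner of folliculin in amino acid sensing, rose by 1.49 on the log2 scale, Rheb, the GTPase that activates mTORC1, went from 7.62, 7.62, 6.98 and 7.67 to 8.43, 8.35, 8.47 and 8.15, and Eif4ebp1, a translation repressor that mTORC1 inactivates, rose 1.86-fold. Sestrins fell, Sesn1 as above and Sesn3 by 0.60. Ulk1, the autophagy kinase restrained by mTORC1, fell 2.05-fold, and Rictor, the scaffold of mTORC2, which was named after its values were seen, fell 1.86-fold.

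All 41 measured genes of ribosome biogenesis rose, against 16% of all genes, and 31 of them at least 2-fold. The changes ran from 0.33 to 3.41 with a median of 1.43, against 2.10 in WT. Rrp1b, a nucleolar processing factor, went from 6.95, 6.68, 6.78 and 6.57 to 10.09, 10.04, 10.37 and 10.12, a 10.6-fold rise. Nhp2, a protein of the H/ACA particles that modify rRNA, went from 7.36, 7.41, 7.75 and 7.09 to 10.26, 10.46, 10.50 and 10.33, a 7.92-fold rise. Gar1 of the same particle rose 5.03-fold, Nop58 of the C/D particles 4.80-fold and Ddx21, a nucleolar helicase, 4.47-fold. The median was lower than in WT. By the test 13 of the 41 rose less, and 7 with only the 16 samples fitted, against a lower change in 4.36% of all genes. Of 34 structural ribosomal proteins 6 rose, with a median of 0.02. The 6 rises ranged from 1 to 10 over the alternatives, and 7 fell after cyclic loess. Rpl14, the called member with the smallest p, rose 1.98-fold.

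Of 31 translation factors and tRNA synthetases, 26 rose and 1 fell, the fall being lost without unstimulated replicate 1 or 4 or any 1 stimulated sample, with the replicate block and with only the 8 samples compared. Eif1a, an initiation factor, rose 3.82-fold, and Eef1e1, a member of the synthetase complex, 4.29-fold, less than in WT by 0.71 ± 0.15 (adjusted p = 0.0046). Rars, which charges arginine, rose 2.80-fold and Eprs, which charges glutamate and proline, 2.41-fold, both also less than in WT (differences of -0.69 and -0.60). In the list 11 members had a lower change than in WT by the test, against 4.36% of all genes. That count was 7 without stimulated Raptor-deficient replicate 4 and 6 with only the 16 samples fitted. Of 26 genes of one-carbon, polyamine and nucleotide synthesis, 24 rose and 1 fell. Psat1, which makes serine, went from 6.70, 6.37, 6.47 and 6.35 to 9.44, 9.34, 9.60 and 9.26, a 7.66-fold rise. Srm, spermidine synthase, rose 8.68-fold, Cad, which starts pyrimidine synthesis, 6.07-fold, Odc1, which starts polyamine synthesis, 5.23-fold and Shmt2, the mitochondrial serine hydroxymethyltransferase, 4.78-fold. Srm, Cad and Shmt2 rose less than in WT, by 0.88, 0.66 and 0.66, while Odc1 and Psat1 did not differ by the test. The member that fell was Rrm2, the subunit of ribonucleotide reductase made in S phase, from 5.41, 5.55, 5.49 and 5.28 to 4.49, 5.24, 4.75 and 4.49.

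Amino acid carriers moved in both directions, with 6 of 14 rising and 4 falling. Slc7a5, which imports leucine, went from 6.05, 7.01, 6.24 and 6.46 to 8.85, 9.06, 9.26 and 9.01, a 6.07-fold rise beside a log2 change of 2.89 in WT. Slc7a1, which imports arginine, rose 9.03-fold and Slc38a1, a glutamine carrier, 3.92-fold. Slc43a2, which moves large neutral amino acids without sodium, fell 3.03-fold, and Slc7a3, a further arginine carrier, fell by 1.21 on the log2 scale. Chaperones and proteasome subunits rose in 28 of 29 cases. Of the 29, 18 had a lower change than in WT by the test, against 4.36% of all genes, and 11 with only the 16 samples fitted. Hspe1, the mitochondrial co-chaperonin, went from 10.32, 9.80, 9.75 and 9.89 to 11.33, 11.50, 11.38 and 11.38, less than in WT by 0.90 ± 0.14 (adjusted p = 0.000245). Hspa9, the mitochondrial Hsp70, rose 2.59-fold and Hsph1, a nucleotide exchange factor of Hsp70, 2.65-fold.

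**Figure D4:**
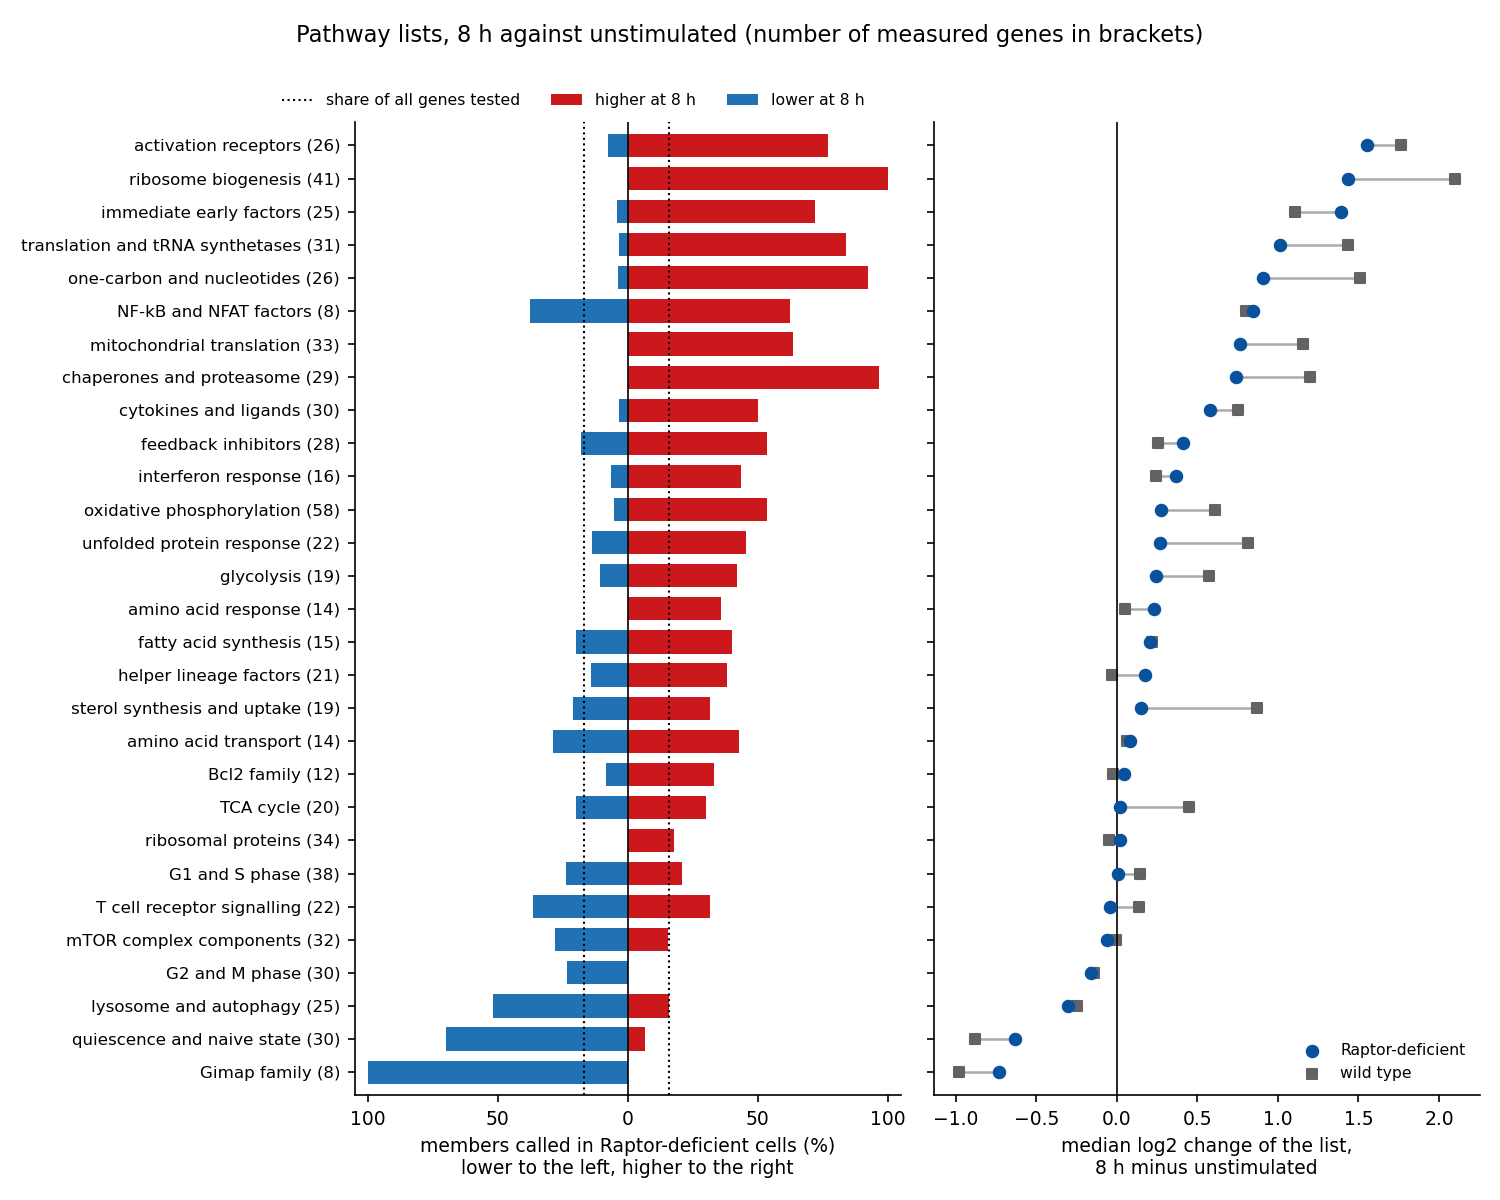
For each of 29 pathway lists, the left panel gives the share of measured members called higher (red) or lower (blue) at 8 h in Raptor-deficient cells, with dotted lines at the shares of all genes, 16% and 16.8%; the right panel gives the median log2 change in Raptor-deficient (circles) and WT cells (squares). Ribosome biogenesis and the Gimap genes were called throughout, and the sterol list has the widest gap between genotypes.

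Of 19 genes of glucose uptake and glycolysis, 8 rose and 2 fell. Slc2a1, the main glucose carrier of activated T cells, went from 7.19, 7.76, 8.10 and 7.88 to 8.86, 9.23, 9.08 and 8.89, a 2.43-fold rise. Hk2, the inducible hexokinase, went from 6.26, 6.32, 5.59 and 6.12 to 8.19, 8.31, 8.34 and 8.18, a 4.53-fold rise. Slc16a1, a lactate carrier, rose 4.19-fold, less than in WT by 0.86 ± 0.13 (adjusted p = 0.00018). Slc2a3, another glucose carrier, rose 1.91-fold, from 7.35, 6.79, 7.61 and 7.46 to 8.17, 8.08, 8.43 and 8.26, while it fell by 0.36 in WT, from a higher start of 7.87 to 8.20. Aldoa, fructose bisphosphate aldolase, and Pgk1, phosphoglycerate kinase, each rose 1.68-fold, less than in WT by 0.49 and 0.61. Gapdh, the next step after aldolase cleavage, was chosen after its values were seen: it was 12.46, 12.35, 11.93 and 12.23 before and 12.19, 12.11, 12.20 and 12.16 after, while in WT it rose by 0.57 (adjusted p of the difference = 0.0029). Pdk1, which shuts pyruvate out of the mitochondrion, fell 2.14-fold, and Pfkm, a phosphofructokinase, 1.62-fold. In the list 8 of 19 changes lay below those in WT by the test and 1, that of Slc2a3, above. The shares of all genes were 4.36% and 1.94%. Hif1a, the factor that drives much of this pathway, went from 8.21, 8.80, 8.28 and 8.58 to 9.16, 9.13, 9.12 and 8.94, a 1.53-fold rise. WT reached 9.98 to 10.28, and the difference of -1.11 ± 0.16 passed the test (adjusted p = 0.00014).

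Of 58 genes of oxidative phosphorylation, 31 rose and 3 fell, with a median of 0.27 against 0.61 in WT. Uqcrq, a subunit of complex III, went from 7.71, 7.46, 7.72 and 7.81 to 9.33, 9.38, 9.56 and 9.44, a 3.38-fold rise. Atp5g1, of the ring of ATP synthase, rose 2.89-fold and Ndufa12, of complex I, 2.08-fold, the latter less than in WT by 0.76 ± 0.12 (adjusted p = 0.00033). Ndufa6, also of complex I, fell by 0.34. In the list 29 of 58 changes lay below those in WT by the test, against 4.36% of all genes, and 16 with only the 16 samples fitted. Of 33 genes of mitochondrial translation, 21 rose, and 10 had a lower change than in WT by the test, against 4.36% of all genes. That count of 10 ranged from 5 with only the 16 samples fitted to 18 after centring, and was 16 without stimulated WT replicate 1. Mrps6 rose 5.28-fold, Mrpl17 4.24-fold and Mrpl12 3.23-fold, Mrpl12 less than in WT by 0.78 ± 0.14 (adjusted p = 0.0012). In the TCA cycle 6 of 20 rose and 4 fell, the latter near the 16.8% of all genes, with a median of 0.02. Idh3a, of the NAD-linked isocitrate dehydrogenase, rose 1.85-fold, less than in WT by 0.85 ± 0.19 (adjusted p = 0.0067), while Sdha, of succinate dehydrogenase, fell 1.65-fold and Idh2, the NADP-linked enzyme, 1.60-fold, beside falls of 0.85 and 0.64 on the log2 scale in WT.

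Sterol synthesis was, of the 29 lists, the one with the lowest median difference from WT (-1.14). SREBP-2, encoded by Srebf2, is released from the endoplasmic reticulum when sterols are short and turns on nearly every enzyme of the pathway. Of 19 genes measured, 6 rose, 4 fell and 9 were not called, with a median change of 0.15 against 0.87 in WT. The changes of 14 lay below those in WT by the test, against 4.36% of all genes. Srebf2 itself went from 8.24, 8.65, 8.93 and 8.85 to 9.12, 9.28, 9.14 and 9.20, a 1.43-fold rise. Its difference from WT did not pass the test (-0.35 ± 0.15, adjusted p = 0.20), but did so without unstimulated Raptor-deficient replicate 1 (-0.50, adjusted p = 0.01362), with array weights (-0.47, adjusted p = 0.02874) and with the mean of probe sets (-0.45, adjusted p = 0.02712). Idi1, isopentenyl diphosphate isomerase, went from 6.08, 6.96, 6.16 and 6.70 to 9.06, 9.32, 9.20 and 9.08, a 6.46-fold rise. In WT it reached 10.85 to 11.11, and the rise was smaller without Raptor by 1.56 ± 0.23 (adjusted p = 0.00015). Sqle, squalene epoxidase, went from 4.35, 4.88, 4.27 and 3.90 to 6.15, 5.99, 5.86 and 5.85. That log2 change of 1.61 was smaller than in WT, where it ended at 7.45 to 7.74, by 2.05 ± 0.20 (adjusted p = 1.063e-06). Cyp51, lanosterol demethylase, went from 6.40, 6.92, 6.68 and 6.85 to 7.69, 7.74, 7.95 and 7.37, a rise smaller than in WT by 1.81 ± 0.15 (adjusted p = 1.545e-07). In these 3 genes every stimulated Raptor-deficient sample lay between its own unstimulated samples and the stimulated WT samples.

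The enzymes Mvd, Sc5d and Dhcr7 fell without Raptor and rose with it. Mvd, which makes isopentenyl diphosphate, went from 5.76, 6.24, 6.09 and 5.79 to 5.16, 5.66, 5.48 and 5.44, and in WT from 5.55 to 5.87 up to 6.32 to 6.45. Sc5d, sterol C5 desaturase, went from 6.25, 6.50, 6.75 and 6.21 to 6.05, 5.95, 6.10 and 5.75, and in WT rose by 0.86. Dhcr7, the last step to cholesterol, went from 6.70, 6.87, 6.92 and 6.99 to 6.18, 6.33, 6.10 and 6.30, and in WT rose by 0.31. The differences were -1.21, -1.33 and -0.95, with adjusted p of 2.828e-05, 2.17e-05 and 7.242e-05. Tm7sf2, a sterol reductase, fell in both genotypes, by 0.76 and 0.60. The other members in this difference were described after their values were seen. Insig1, which holds SREBP in the endoplasmic reticulum, and Hsd17b7 rose by 0.58 and 0.46, less than in WT by 1.26 and 1.09. Lss, Fdft1, Fdps, Msmo1, Nsdhl and Stard4 were not called without Raptor, with changes of -0.01, 0.15, 0.17, 0.41, -0.32 and -0.08. In these genes the changes lay below those in WT by 1.39, 1.14, 1.22, 1.58, 1.10 and 0.90. Of these, Msmo1 was called without stimulated replicate 4 (0.61), without unstimulated replicate 2 (0.48) or 4 (0.51), after cyclic loess and without dim genes, Nsdhl without stimulated replicate 4, with -0.41, and Fdft1 without unstimulated replicate 1, with 0.27. The remaining members that were not called, Hmgcs1, Mvk and Ebp, also did not differ from WT by the test, and Ebp was called without stimulated replicate 3 (-0.36). The difference of Hmgcs1, -0.48, passed the test without stimulated WT replicate 4 (-0.64, adjusted p = 0.004328) and after centring (-0.55, adjusted p = 0.04858).

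**Figure D5:**
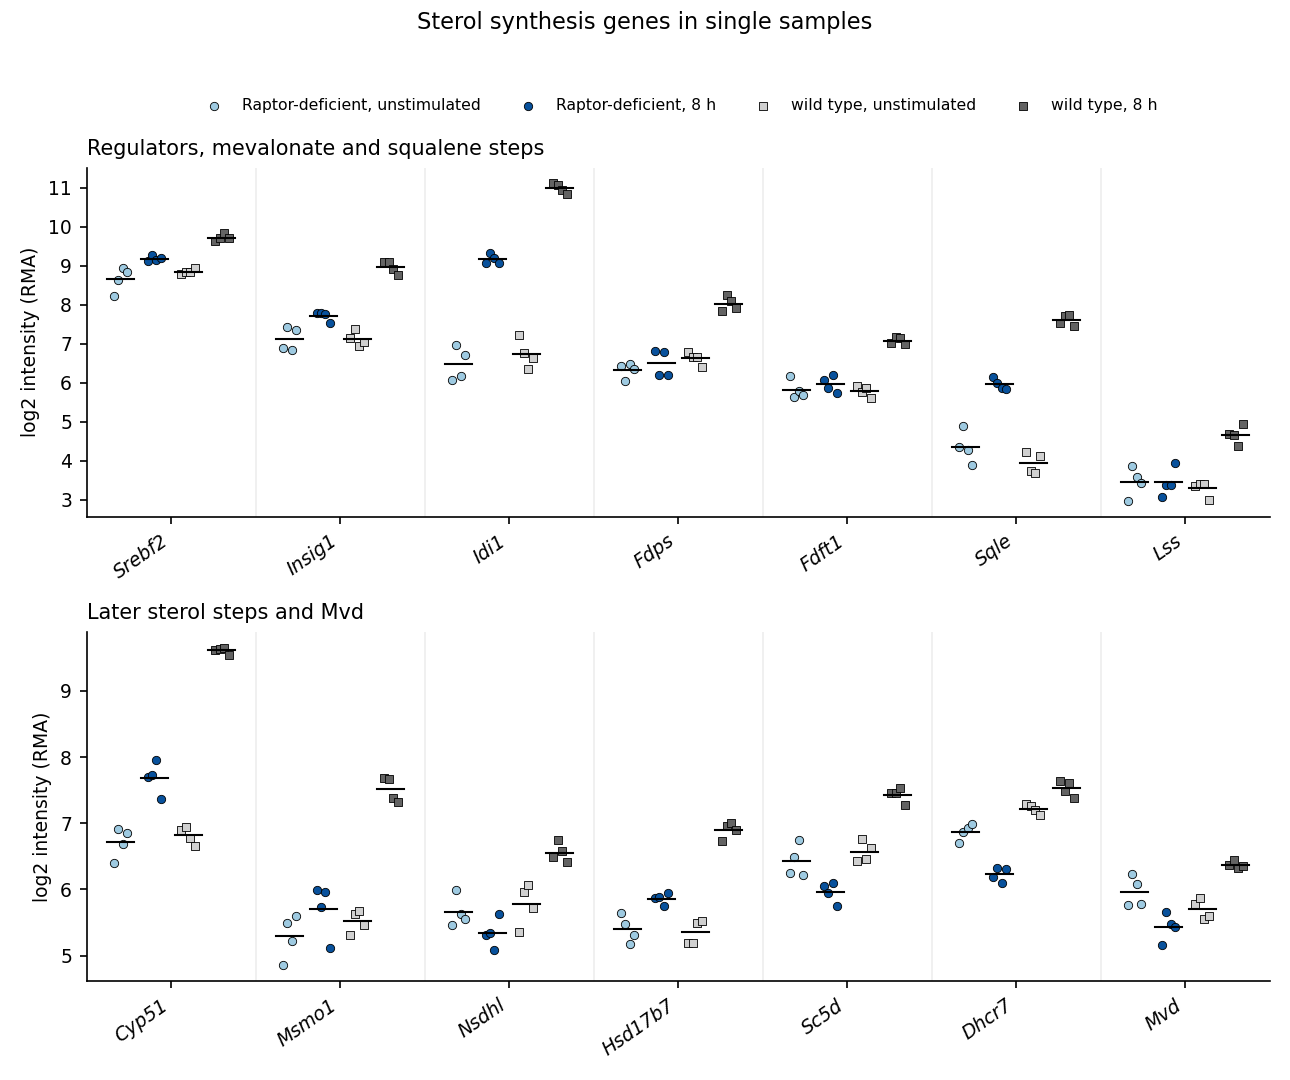
Log2 intensities of 14 sterol synthesis genes in single samples of the 4 groups, n = 4 each, with bars at group means. Stimulated WT samples (dark squares) lie above stimulated Raptor-deficient samples (dark circles) in all 14 genes, and Mvd, Sc5d and Dhcr7 lie lower in stimulated than in unstimulated Raptor-deficient cells.

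The promoters of these genes share the CCAAT box, bound by NF-Y, which acts beside SREBP at sterol genes. For 15 of the 19 genes, 17 promoters were matched in RefSeq, and the 250 bases before the start held CCAAT on either strand in 15 of them, 88.2% against 33.8% of all 32851 promoters. The sterol response element TCACNCCAC was in 1, that of Hmgcs1, or 5.88% against 1.05%. The promoters of Idi1 and Cyp51, the called genes of the list with the largest rises that held a motif, are shown 5′ to 3′ on the strand of the gene with the CCAAT box, or ATTGG where it lies on the other strand, in capitals. That of Idi1 is at chr13:8885356-8885605 on the plus strand, with boxes 40 and 9 bases before the start. That of Cyp51 is at chr5:4104698-4104947 on the minus strand, with 1 box 24 bases before the start. The same letters stand in promoters of genes that rose and of genes that fell.
Idi1: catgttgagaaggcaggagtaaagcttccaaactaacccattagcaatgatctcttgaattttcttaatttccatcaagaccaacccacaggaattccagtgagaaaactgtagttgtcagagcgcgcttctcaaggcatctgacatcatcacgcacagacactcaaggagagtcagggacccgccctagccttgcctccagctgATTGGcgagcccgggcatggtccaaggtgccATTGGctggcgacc
Cyp51: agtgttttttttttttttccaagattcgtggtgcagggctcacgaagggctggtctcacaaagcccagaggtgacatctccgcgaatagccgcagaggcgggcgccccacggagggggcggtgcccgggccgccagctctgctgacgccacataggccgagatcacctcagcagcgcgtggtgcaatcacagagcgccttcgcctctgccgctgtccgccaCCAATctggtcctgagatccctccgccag

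Of 15 genes of fatty acid synthesis, 6 rose and 3 fell. Acaca, acetyl-CoA carboxylase, went from 6.19, 5.90, 6.56 and 6.00 to 7.88, 7.57, 7.97 and 7.99, a 3.22-fold rise. Its difference from WT was -0.29 and did not pass the test (adjusted p = 0.35), but with the mean of its probe sets it was -0.54 and did (adjusted p = 0.002164). Acsl4, which activates long fatty acids, rose 2.55-fold. Fasn, fatty acid synthase, went from 7.24, 7.63, 7.11 and 7.49 to 8.37, 8.47, 8.78 and 8.42, a 2.21-fold rise that was smaller than in WT by 0.81 ± 0.15 (adjusted p = 0.0017). Elovl5, an elongase, fell 1.55-fold.

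Of 22 genes of the unfolded protein response, 10 rose and 3 fell, with a median of 0.27 against 0.82 in WT. The changes of 11 lay below those in WT by the test, against 4.36% of all genes, and of 6 with only the 16 samples fitted. Hspa5, the chaperone BiP, rose 2.08-fold, Canx, calnexin, 1.75-fold and Calr, calreticulin, 1.67-fold. Sdf2l1, a partner of BiP, went from 5.75, 5.83, 5.54 and 6.26 to 6.92, 6.76, 7.04 and 6.63, less than in WT by 1.30 ± 0.16 (adjusted p = 2.52e-05). Creld2, a secreted reticulum protein chosen after its values were seen, was 7.56, 7.54, 7.15 and 7.25 before and 7.60, 7.62, 7.62 and 7.58 after, and was not called (0.22 ± 0.11, adjusted p = 0.15), while in WT it changed by 1.49. Its difference of -1.26 ± 0.16 passed the test (adjusted p = 3.541e-05). Edem1, which sorts misfolded glycoproteins for disposal, fell 1.50-fold. In the amino acid response, 5 of 14 genes rose. Atf4, its factor, rose from 9.24, 9.25, 9.29 and 9.33 to 9.78, 9.88, 9.91 and 9.87. Ddit3, the stress factor CHOP, rose 1.39-fold, and Aldh18a1, which starts proline synthesis, 2.56-fold.

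Of 38 genes of G1 and S phase 8 rose and 9 fell, near the 16% and 16.8% of all genes, with a median of 0.00. Cdk4, a kinase of early G1, went from 7.12, 7.80, 7.33 and 7.69 to 9.32, 9.25, 9.44 and 9.21, or 3.54-fold, Cdk6 rose 4.88-fold and Ccnd2, their cyclin, 2.78-fold. In WT the log2 changes of Cdk4, Cdk6 and Ccnd2 were 2.45, 2.53 and 1.59, beside 1.82, 2.29 and 1.48 here. Cdk2, the kinase of the G1 to S step, fell 1.67-fold. Of 30 genes of G2 and mitosis 7 fell, near the 16.8% of all genes, and 4 fell without unstimulated replicate 4 or with only the 8 samples compared. Cdc25b, a phosphatase of mitotic entry, fell 3.31-fold, from 7.59, 7.73, 7.70 and 7.80 to 6.01, 6.03, 5.83 and 6.03, and Cenpa, the centromeric histone, 2.08-fold. Mki67, the proliferation marker, was 5.43, 6.20, 5.26 and 5.86 before and 5.38, 5.29, 5.11 and 5.52 after. It was not called (-0.36 ± 0.19, adjusted p = 0.16), but was without unstimulated replicate 3 (-0.50, adjusted p = 0.045).

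Of 12 Bcl2 family genes 4 rose and 1 fell. Bcl2l1, the survival protein Bcl-xL, went from 6.87, 6.73, 7.04 and 6.66 to 8.27, 8.29, 8.53 and 8.48, a 2.97-fold rise. Bcl2 rose 1.71-fold, Bid, which links death receptors to mitochondria, rose 2.08-fold and less than in WT by 0.72 ± 0.16 (adjusted p = 0.0083), and Bad, a pro-apoptotic member, fell 1.67-fold with groups that overlapped by 1 sample. Among 21 helper lineage factors 8 rose and 3 fell. Bcl6, the factor of follicular helper cells, rose 3.49-fold and Id3, an inhibitor of E proteins, 3.95-fold, while Stat4, the mediator of interleukin 12, fell 2.67-fold. Id2, another inhibitor of E proteins, went from 5.79, 6.29, 6.88 and 6.56 to 7.26, 7.48, 7.52 and 7.43, a 2.06-fold rise. In WT it was 6.98, 7.07, 7.15 and 7.07 before and 6.65, 6.90, 6.66 and 6.63 after, and the difference of 1.40 ± 0.21 passed the test (adjusted p = 0.00017). Runx1, a factor of T cell development, rose 1.62-fold, a change above that in WT by 0.71 ± 0.16 (adjusted p = 0.0061). Of 16 interferon response genes 7 rose and 1 fell, with 4 rising without stimulated replicate 1. Gbp2, an interferon-induced GTPase, went from 7.004, 6.34, 5.80 and 5.46 to 10.85, 10.72, 10.14 and 9.72, or 18.4-fold. Lysosome and autophagy genes fell in 13 of 25 cases and rose in 4. Atg9a, a membrane supplier of autophagosomes, fell by 1.32 on the log2 scale, and the proteases Ctsb and Ctsd fell 1.75-fold and 1.85-fold.

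Among genes called in both tests, the largest difference above WT was that of Ccr8, a chemokine receptor of skin-homing and regulatory T cells. Ccr8 went from 3.57, 3.71, 4.07 and 3.49 to 7.37, 7.10, 7.52 and 6.88, a log2 change of 3.50. In WT it went from 3.83, 3.87, 3.33 and 3.58 to 5.08, 4.88, 4.65 and 4.87, so the groups did not overlap at 8 h, and the difference was 2.29 ± 0.21 (adjusted p = 3.952e-07). Xcl1, Id2 and Slc2a3 followed with Ramp3, a receptor-modifying protein, which rose 3.82-fold, more than in WT by 1.39 ± 0.15 (adjusted p = 5.644e-06). Dusp4, an ERK phosphatase of the nucleus, rose 7.05-fold against a log2 change of 1.69 in WT. Cdyl2, a chromodomain protein, rose by 0.56 and fell by 0.57 in WT. Scml4 and Pde2a fell by 0.85 and 1.03, less than in WT by 1.10 and 1.05. Pde2a started lower than in WT, at a mean of 6.66 against 7.85. At 8 h its means were 5.63 without Raptor and 5.76 in WT. Frat2, an activator of Wnt signalling, changed by -0.35 against -1.57 in WT, and its own call was lost in 5 of the 8 fits that each left out 1 sample. Of the differences below WT, those of Sqle and Cyp51 came first. Rgs1, which dampens chemokine receptor signals, went from 5.39, 5.38, 4.81 and 5.63 to 6.77, 6.77, 6.86 and 6.66, less than in WT by 1.76 ± 0.20 (adjusted p = 8.087e-06). Rilpl2, a protein of ciliary and lysosomal transport, Chst2, a sulfotransferase, Ptger2, a prostaglandin E receptor, Acot7, an acyl-CoA thioesterase, and Eea1, a tether of early endosomes, also rose less. Their changes were 1.18, 3.24, 1.43, 2.55 and 2.52, and the differences from WT were -1.72, -1.61, -1.54, -1.40 and -1.38.

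Markers of other cells moved in a few places. Of 8 regulatory T cell markers 3 rose and 1 fell. The mean of that list was 5.67 to 5.79 before and 6.44 to 6.70 after, and 2 of the 3 that rose, Il2ra and Tnfrsf18, are also members of the activation receptor list. Foxp3, the defining factor of that lineage, was 7.25, 7.23, 7.05 and 7.06 before and 7.15, 7.24, 7.33 and 7.25 after, a change of 0.09 that did not pass the test. The mean of 5 erythroid markers was 5.36 to 5.93 before and 6.22 to 6.53 after, and its 1 called member was Tfrc. Of 10 natural killer cell markers 1 rose and 2 fell. The mean of Cd8a and Cd8b1, markers of CD8 T cells, was 6.01 to 6.38 before and 5.63 to 6.01 after. Cd8b1 fell by 0.40, a call lost with only the 8 samples compared (adjusted p = 0.05167). Cd8a changed by -0.39 and was not called. It was called by limma with only those 8 samples (adjusted p = 0.02572) and with the replicate block (adjusted p = 0.0186). The part of such cells in the results above was not tested.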

How the data were processed

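The authors deposited log2 intensities of 45141 probe sets in 24 samples, hybridised to Affymetrix HT MG-430 PM arrays from 20 ng of RNA per the labels. The submitters' processing notes name RMA and Partek 6.5. RMA sets background, normalisation and probe summary together, which compresses changes of dim genes. No raw scans were used here. Gene names came from the platform annotation: 28898 probe sets had 1 symbol, 551 had several and were left out, and 15692 were not listed. Of 17097 genes, 7180 had more than 1 probe set, and the brightest over all samples stood for the gene. limma 3.58.1 in R 4.3.3 fitted 6 group means over the 24 samples (18 residual degrees of freedom), with Benjamini-Hochberg adjustment over all genes. Errors beside changes are limma's SE. The contrasts were stimulated minus unstimulated Raptor-deficient, the same in WT, and their difference. The fit was tested on simulated data in which all groups had the same spread for a gene. That simulation does not cover the noisier unstimulated Raptor-deficient group.

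Named genes were the 15 largest rises and falls, up to 5 called members of each list by p with members moving against the majority, the 10 largest differences from WT in each direction among genes called in both tests, and 17 fixed genes. Any other gene was chosen after its values were seen. Members and lists were chosen with earlier results of these data known. Alternatives covered probe set summary, a filter on dim genes, scaling, weights, the prior, the samples fitted, the replicate block and each sample left out.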

Additional observations from a re-analysis of the deposited data

Results flagged for a closer look

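In 25 of 428 groups of 4 samples behind the reported values, 1 sample lay far from the other 3 by Dixon's test at its 95% critical value. Chance flags about 1 in 20 groups, and their number here is close to that share. Stimulated Raptor-deficient replicate 1 lay below the others in Cd4 (9.81) and Ctsb (7.99). Stimulated Raptor-deficient replicate 2 lay above the others in Nipal1 (4.78) and the mean of the CD4 T cell markers (9.57). Stimulated Raptor-deficient replicate 3 lay above the others in Lta (7.99) and below the others in Cdc25b (5.83) and Pdk1 (7.67). Stimulated Raptor-deficient replicate 4 lay below the others in Dusp2 (9.20), Dusp6 (8.07), Eef1e1 (8.84), Hif1a (8.94), Insig1 (7.54) and Ndufa6 (7.50). Stimulated WT replicate 2 lay above the others in Id2 (6.90). Unstimulated Raptor-deficient replicate 1 lay above the others in Hspa5 (10.39) and Rars (7.49) and below the others in Acot7 (4.46), Cd4 (10.53) and Tfrc (6.55). Unstimulated Raptor-deficient replicate 2 lay above the others in Eea1 (4.32), Nfkbid (6.77) and the mean of the natural killer cell markers (4.73). Unstimulated Raptor-deficient replicate 3 lay below the others in Rheb (6.98). Unstimulated WT replicate 1 lay below the others in Xcl1 (4.43). Unstimulated WT replicate 4 lay below the others in Slc2a3 (7.87).

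The response to stimulation differed between the genotypes in 78 of the named genes by limma's test of the difference (adjusted p under 0.05). Values are log2 changes, Raptor-deficient minus WT. In 20 the value was above 0. The larger were Ccr8 (2.29), Xcl1 (1.57), Id2 (1.40), Ramp3 (1.39), Slc2a3 (1.29), Frat2 (1.22), Cdyl2 (1.13), Dusp4 (1.13), Scml4 (1.10) and Pde2a (1.05). The smaller were S1pr1 (1.0001), Cdkn1b (0.97), Tnfsf11 (0.92), Malt1 (0.89), Btg2 (0.82), Txnip (0.78), Satb1 (0.75), Runx1 (0.71), Btg1 (0.64) and Nr4a3 (0.62). In 58 it was below 0. The values furthest below 0 were Fasl (-2.35), Sqle (-2.05), Cyp51 (-1.81), Rgs1 (-1.76), Rilpl2 (-1.72), Chst2 (-1.61), Msmo1 (-1.58), Idi1 (-1.56), Ptger2 (-1.54) and Acot7 (-1.40). Next came Lss (-1.39), Eea1 (-1.38), Il2 (-1.37), Sc5d (-1.33), Sdf2l1 (-1.30), Creld2 (-1.26), Insig1 (-1.26), Fdps (-1.22), Mvd (-1.21) and Fdft1 (-1.14). Then followed Hif1a (-1.11), Nsdhl (-1.10), Hsd17b7 (-1.09), Fosl1 (-1.02), Pdcd1 (-1.01), Dhcr7 (-0.95), Lta (-0.94), Hspe1 (-0.90), Stard4 (-0.90) and Srm (-0.88). Lower in size were Slc16a1 (-0.86), Idh3a (-0.85), Bcl3 (-0.82), Fasn (-0.81), Mrpl12 (-0.78), Ndufa12 (-0.76), Cd69 (-0.75), Slamf1 (-0.74), Bid (-0.72) and Eef1e1 (-0.71). Smaller again were Canx (-0.70), Spry1 (-0.69), Rars (-0.69), Shmt2 (-0.66), Cad (-0.66), Gapdh (-0.65), Cdk4 (-0.63), Pgk1 (-0.61), Eprs (-0.60) and Hspa5 (-0.59). The smallest were Calr (-0.53), Tfrc (-0.51), Aldoa (-0.49), Nop58 (-0.47), Atf4 (-0.47), Ndufa6 (-0.46), Hsph1 (-0.45) and Hspa9 (-0.39). Calls of the difference lost under at least 1 alternative were those of Atf4, Calr, Cdk4, Cdkn1b, Dusp4, Hspa5, Hspa9, Hsph1, Malt1, Ndufa6, Nop58, Nr4a3, S1pr1, Slamf1, Spry1, Tfrc and Tnfsf11. With the mean of probe sets Slamf1 was -0.20 (adjusted p = 0.4985), Malt1 0.33 (adjusted p = 0.114), Nr4a3 0.37 (adjusted p = 0.1072) and Atf4 -0.21 (adjusted p = 0.2121).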

How the results depend on the processing

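The count of 5612 genes called in the Raptor-deficient response stayed within 1.5 times under each alternative run. It was 5872 with probe sets of each gene averaged, 5332 without dim genes, 5593 after centring, 5670 after cyclic loess, 5450 when arrays were weighted, 5589 under a trended robust prior, 4428 with only the 8 samples compared and 5638 with the replicate block. Leaving out 1 sample gave 5057 to 5695. Over all genes, deviations of same-numbered unstimulated and stimulated samples correlated little (r of 0.0039 to 0.0986 in Raptor-deficient pairs). The B cell mean of Raptor-deficient replicates 1 to 4 was 5.544, 5.2, 5.249 and 5.117 unstimulated and 5.57, 5.257, 5.255 and 5.156 at 8 h. The ribosome biogenesis mean did not keep its order, being highest in replicate 1 unstimulated and in replicate 3 at 8 h. Whether same-numbered samples shared a source cannot be told from these values. The labels' numbers were not taken as pairs in the main fit, and the replicate block was run as an alternative. These r values do not compare same-numbered samples across genotypes. At 8 h the mean of the interferon response list fell from replicate 1 to 4 in both genotypes. It was 7.04, 6.998, 6.7 and 6.569 without Raptor and 7.043, 6.876, 6.461 and 6.349 in WT. The ribosome biogenesis mean was lowest in replicate 4 without Raptor and in replicate 1 in WT. Whether same-numbered samples shared a factor across genotypes was not tested.

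The genotype difference moved more. Centring gave 225 higher and 1053 lower against 331 and 745. With only the 16 samples compared it called 548 genes, 147 higher and 401 lower. Leaving out 1 sample gave 753 genes (stimulated WT replicate 3) to 1653 (unstimulated Raptor-deficient replicate 3), of which 207 and 571 were higher, and 499 were higher without stimulated WT replicate 1. The same fits gave 66 to 148 genes that reached 2-fold, against 84. Of the named genes, 168 of 171 calls of the Raptor-deficient response and 61 of 78 of the genotype difference held under each alternative. Changes that reversed were all uncalled: with the mean of probe sets Btg1 changed by 0.0922 and Stard4 by 0.0237, and leaving out 1 sample gave -0.174 to 0.121 for Lss and -0.411 to 0.0717 for Rptor. In the genotype difference, Il6ra was -0.0177 after centring and Zfp36l2 was 0.0360 after cyclic loess and 0.0323 with array weights, and leaving out 1 sample gave -0.0203 to 0.148 for Il6ra, -0.152 to 0.0309 for Tob1 and -0.0866 to 0.0930 for Zfp36l2. The cause of these shifts was not tested. The number of arrays, 4 in a group, limits the precision.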
